A study of Homo sapiens with 30 samples.

Results

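Expression of 4 developmental transcription factors, FOXD1, FOXP2, SIX2 and SP9, was examined in human acute myeloid leukemia (AML) cell lines carrying a vector that overexpressed miR-1 or that targeted MPC1. The 4 genes were selected on measured values of these libraries. FOXD1 and FOXP2 were taken because they were lower in Molm-14 KO than in Molm-14 EV, SIX2 because it was lower in MV4-11 OE than in MV4-11 EV, and SP9 because it was higher in Molm-14 OE than in Molm-14 EV. Those 4 differences, and every comparison that shares a library with the one that selected a gene, are therefore given for that gene as descriptions without a test. The 4 genes were among 60675 genes listed for the overexpression series and 58051 listed for the knockout series, and all 4 passed the filter on low counts in both series (17542 and 14490 genes tested).

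The overexpression series compared MV4-11 and Molm-14 cells carrying a lentiviral GFP vector with the miR-1 hairpin and sequence of its MIR1-2 host gene (OE) with the same lines carrying the empty vector (EV). The knockout series compared MV4-11, Molm-14 and THP-1 cells carrying a CRISPR/Cas9 vector with 1 guide against MPC1 (KO) with the same lines carrying an EV control (nontargeting). MV4-11 and Molm-14 were used in both series. MV4-11 carries the KMT2A-AFF1 fusion, Molm-14 and THP-1 carry KMT2A-MLLT3, and MV4-11 and Molm-14 also carry an internal tandem duplication in FLT3. Each of the 10 groups held 3 libraries of 1 cell line, and the labels did not say whether these were separate cultures or clones, so p-values measure the spread between libraries, which may be technical. MPC1 (a subunit of the mitochondrial pyruvate carrier) kept 44.2% of its EV level in MV4-11 KO, 48.4% in Molm-14 KO and 55.8% in THP-1 KO, so transcript was reduced and not absent.

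Each overexpression library held between 15543301 and 20939985 counts, and each knockout library between 5339360 and 9106478. All 12 myeloid markers (LYZ, MPO, AZU1, FLT3 and others) had a mean of at least 1 CPM (a count scaled to a fixed library total) in every group. Of 8 fibroblast markers, PDGFRB reached 1 CPM in the THP-1 groups and none did elsewhere, and their sum ran from 0.386 to 2.0 CPM over the overexpression libraries and from 0.251 to 3.35 CPM over the knockout libraries. The 8 epithelial markers summed to 19.0 to 34.7 and 2.39 to 35.8 CPM. In every MV4-11 and Molm-14 group the keratins KRT8 and KRT18 were at 1 CPM or more, with KRT18 at 14.4 CPM in MV4-11 EV of the overexpression series and at 23.7 to 29.0 CPM in the Molm-14 groups, while KRT19 was at 0 in every group. The 8 neural markers summed to 0.31 to 6.99 and 0.135 to 6.79 CPM, with SNAP25 at 4.16 to 6.18 CPM in the Molm-14 groups. Their part in the results was not tested. Every level below is in CPM scaled by TMM factors. Every difference is a log2 fold change from edgeR, with the standard error (SE) or 95% confidence interval, and a gene was called at a false discovery rate (FDR) under 5%. The 2 tables list different sets of genes, so levels were not compared between the series, apart from SIX2 and a few other genes in EV groups.

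Developmental transcription factors of this kind are DNA-binding proteins that set cell identity in an embryonic tissue and are usually off in blood cells. FOXD1, a forkhead factor, marks the stromal progenitors of the developing kidney, where SIX2, a homeodomain factor, keeps nephron progenitors from differentiating. FOXP2 is a forkhead factor of the striatum, cortex and lung that is best known for its role in speech. SP9 is a zinc-finger factor of the SP family that acts in the ectoderm of the limb bud and in interneuron progenitors of the ventral forebrain. All 4 act in the nucleus on the promoters and enhancers of other genes, and none of them is known as a marker of normal myeloid cells.

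FOXD1 (ENSG00000251493) lies on chromosome 5 from 73444827 to 73448777 on the minus strand of GRCh38, and FOXP2 (ENSG00000128573) on chromosome 7 from 114086327 to 114693772 on the plus strand. SIX2 (ENSG00000170577) and SP9 (ENSG00000217236) are both on chromosome 2, from 45005182 to 45009452 on the minus strand and from 174334954 to 174338500 on the plus strand. FOXD1, SIX2 and SP9 are compact genes whose exons merge into 2 blocks, while FOXP2 spans 607446 bases with 35 blocks. FOXD1-AS1, which lies inside FOXD1 on the opposite strand, held 1 count over the overexpression series and 0 over the knockout series. Antisense counts over FOXP2 and SP9 were also low, at 2 and 15 counts for the transcript across FOXP2 and 14 and 19 for the transcript across SP9. Whether counting used the strand was not stated, so these counts cannot decide whether antisense transcript was present. A non-coding transcript on the strand of FOXP2 (ENSG00000282859) held 350 and 72 counts, while FOXP2 held 8800 counts in the MV4-11 EV libraries of the overexpression series alone.

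The mature miRNA that the OE vector encodes is shown because OE libraries are set beside EV libraries throughout. It is printed 5′ to 3′ as in RefSeq at the MIR1-1 locus (GRCh38.p14, chr20:62554351-62554372, plus strand), with the seed (bases 2 to 8) in capitals, and the MIR1-2 locus holds the same letters.
hsa-miR-1-3p: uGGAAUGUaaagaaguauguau
A 7-base match to this seed, either to bases 2 to 8 or to bases 2 to 7 followed by A, was found in none of the canonical 3′ UTRs of the 4 genes, which were 699 bases long in FOXD1, 3839 in FOXP2, 988 in SIX2 and 960 in SP9. Of 12567 tested genes of the overexpression series with a 3′ UTR, 21.9% held such a match, at a median length of 1295 bases. No match says only that these letters are not in this stretch.

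The promoters of the 3 members with a RefSeq entry are shown because FOXD1 and FOXP2 were selected as lower in the same libraries and SIX2 in others. Each holds 250 bases before and 50 after a start site of GRCh38.p14, on the strand of the gene, with each GC box (GGGCGG on either strand) in capitals.
FOXD1 promoter, chr5:73448728-73449027, minus strand: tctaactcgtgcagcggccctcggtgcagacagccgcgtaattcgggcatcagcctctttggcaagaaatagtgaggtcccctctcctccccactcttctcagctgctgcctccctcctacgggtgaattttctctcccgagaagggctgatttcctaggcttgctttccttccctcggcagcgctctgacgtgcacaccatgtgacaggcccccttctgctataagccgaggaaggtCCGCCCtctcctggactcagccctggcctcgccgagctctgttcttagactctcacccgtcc
SIX2 promoter, chr2:45009403-45009702, minus strand: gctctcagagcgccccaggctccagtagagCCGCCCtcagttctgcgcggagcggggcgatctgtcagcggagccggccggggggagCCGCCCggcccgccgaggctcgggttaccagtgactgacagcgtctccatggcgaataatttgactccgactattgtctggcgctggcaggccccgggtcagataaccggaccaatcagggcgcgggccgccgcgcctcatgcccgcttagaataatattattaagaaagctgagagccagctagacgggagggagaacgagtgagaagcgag
FOXP2 promoter, chr7:114414565-114414864, plus strand: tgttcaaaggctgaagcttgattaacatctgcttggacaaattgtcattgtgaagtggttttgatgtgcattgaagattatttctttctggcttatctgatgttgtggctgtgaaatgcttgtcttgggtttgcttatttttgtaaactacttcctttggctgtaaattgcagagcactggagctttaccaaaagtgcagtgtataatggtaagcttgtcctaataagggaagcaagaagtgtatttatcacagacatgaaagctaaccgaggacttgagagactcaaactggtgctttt
The FOXD1 window held 16 CpG dinucleotides and 1 GC box, and the SIX2 window 29 CpG and 2 GC boxes. The FOXP2 window held 1 CpG and no GC box at a GC content of 38.7%, and it lies inside the gene rather than at its outermost start. A second FOXP2 window, chr7:114426252-114426551, held 3 CpG and no GC box. Over 35116 promoters of this length the median was 14 CpG and 58.7% GC, and 45.0% held a GC box. A forkhead motif (TGTTTAC, either strand) stood in 3.4% of promoters and a TATA box (TATAAA, either strand) in 11.5%, and neither was found in any of the 4 windows of the 3 genes. A match is a description of letters and not a binding site. SP9 is named only.

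FOXD1 was on in Molm-14 and THP-1 and at or near 0 in MV4-11. In the overexpression series it had 0 counts in all 6 MV4-11 libraries, where 3 counts would be 0.148 to 0.186 CPM. The Molm-14 EV libraries held 12.1, 10.9 and 10.1 CPM and the Molm-14 OE libraries 8.22, 9.71 and 8.45 CPM. In the knockout series FOXD1 had 0 counts in each MV4-11 EV library and 0, 2 and 1 counts in the MV4-11 KO libraries. THP-1 EV libraries held 51.3, 47.4 and 54.5 CPM and THP-1 KO libraries 50.9, 50.3 and 56.5 CPM, which overlap. The Molm-14 EV libraries of the knockout series held 29.6, 19.7 and 23.1 CPM, below every THP-1 library.

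FOXD1 in Molm-14 KO held 6.62, 6.39 and 6.09 CPM. Every KO library was below every EV library. The mean went from 24.1 ± 5.03 to 6.37 ± 0.261 CPM (SD, n = 3), or 26.4% of EV, with a log2 fold change of −1.90 (SE 0.165). This value selected FOXD1. In these bulk libraries, fewer cells with the transcript and less transcript per cell cannot be told apart.

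FOXD1 did not pass the test in any effect that had not selected it. In Molm-14 OE the log2 fold change of −0.33 had a 95% confidence interval from −0.68 to 0.03 (edgeR, unadjusted p = 0.0691, FDR = 1.0). In the same comparison 0.0057% of tested genes were called. In THP-1 KO the log2 fold change was 0.04 (95% confidence interval −0.21 to 0.30, edgeR FDR = 0.949), where 0.0897% of genes were called. The Molm-14 OE value comes from the same 6 libraries that selected SP9. The FOXD1 effect in THP-1 KO minus that in Molm-14 KO came to 1.95 on the log2 scale (SE 0.208), given without a test because it shares the libraries that selected the gene.

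FOXP2 was above 25 CPM in every library of all 3 lines. In the overexpression series the MV4-11 EV libraries held 152.3, 183.1 and 139.9 CPM and the MV4-11 OE libraries 152.5, 162.7 and 182.2 CPM, which overlap. The Molm-14 EV libraries held 54.6, 54.4 and 52.2 CPM and the Molm-14 OE libraries 44.6, 49.2 and 48.6 CPM. In the knockout series the MV4-11 EV libraries held 96.1, 109.5 and 99.0 CPM and the MV4-11 KO libraries 108.2, 99.9 and 120.8 CPM. THP-1 had the highest levels, at 213.5, 228.0 and 226.3 CPM in EV and 233.7, 240.6 and 214.3 CPM in KO. In both series every Molm-14 library lay below every MV4-11 library.

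FOXP2 in Molm-14 went from 51.8, 69.6 and 61.3 CPM in EV to 29.1, 25.6 and 27.0 CPM in KO. The groups did not overlap, and the mean in KO was 44.7% of that in EV, with a log2 fold change of −1.17 (SE 0.107). This value selected FOXP2. Of all 14490 tested genes, 1.06% were called lower and 1.34% higher in Molm-14 KO (2.4% in either direction), and nothing is read from FOXD1 and FOXP2 against that share because the comparison selected them.

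FOXP2 did not pass the test in any of the 4 other effects. The log2 fold change was 0.06 in MV4-11 OE (95% confidence interval −0.12 to 0.24, edgeR FDR = 1.0), where 0.177% of genes were called, and 0.11 in MV4-11 KO (−0.08 to 0.30, edgeR FDR = 0.511), where 5.41% were called. In THP-1 KO it was 0.04 (−0.14 to 0.23, edgeR FDR = 0.924). In Molm-14 OE it was −0.18 (−0.38 to 0.02, edgeR unadjusted p = 0.0693, FDR = 1.0). The difference between the OE effects of Molm-14 and MV4-11 was −0.25 (SE 0.125, edgeR FDR = 0.978), where 0.0456% of genes were called, and that between the KO effects of THP-1 and MV4-11 was −0.07 (SE 0.13, edgeR FDR = 0.935), where 0.193% were called. Without a test, the KO effect of Molm-14 minus that of MV4-11 was −1.28 (SE 0.142) and that of THP-1 minus Molm-14 was 1.21 (SE 0.14).

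SIX2 had the lowest levels of the 4 per kilobase of exon in Molm-14 and THP-1 EV of the knockout series, and in MV4-11 it was above FOXD1 and SP9 in the overexpression series. In the overexpression series the MV4-11 EV libraries held 34, 33 and 35 counts (1.97, 1.59 and 2.06 CPM), and the MV4-11 OE libraries 3, 11 and 6 counts (0.179, 0.568 and 0.333 CPM). The groups did not overlap, and the mean went from 1.87 ± 0.249 to 0.360 ± 0.196 CPM (SD, n = 3), or 19.2% of EV. The log2 fold change was −2.32 (SE 0.314). This value selected SIX2, and it rests on 20 counts over the OE libraries. MV4-11 EV of the knockout series held a mean of 0.0387 CPM (1 count), so the EV level itself differed between the series. Such a difference was not particular to SIX2 or to MV4-11. In MV4-11 EV, the overexpression and knockout series held 54.4 and 2.85 CPM of FOXP4 and 14.4 and 2.06 CPM of KRT18. SP3 went the other way, at 172.4 and 243.6 CPM. In Molm-14 EV, SIX2 was at 9.77 and 1.48 CPM. The cause of these differences was not tested.

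SIX2 in Molm-14 of the overexpression series held 8.46, 9.44 and 11.4 CPM in EV and 7.58, 9.48 and 8.25 CPM in OE. These overlap, and the log2 fold change was −0.21 (95% confidence interval −0.60 to 0.17, edgeR FDR = 1.0). In the knockout series MV4-11 held 1 SIX2 count over the 3 EV libraries and 1 over the 3 KO libraries, so no fold change is given. Molm-14 held 1.51, 1.46 and 1.45 CPM in EV and 1.89, 3.59 and 0.938 CPM in KO, with a log2 fold change of 0.57 (−0.27 to 1.42, edgeR FDR = 0.717) that came to −0.06 without KO replicate 2. THP-1 held 1.73, 3.29 and 2.36 CPM in EV and 2.78, 2.08 and 4.02 CPM in KO, with a log2 fold change of 0.26 (−0.49 to 1.02, edgeR FDR = 0.879). Both values were within the spread between libraries. The difference between those effects, THP-1 minus Molm-14, was −0.31 (SE 0.551, edgeR FDR = 0.982), where 0.766% of genes were called.

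SP9 had 0 counts in all 6 MV4-11 libraries of the overexpression series. The Molm-14 EV libraries held 11.1, 10.3 and 10.5 CPM and the Molm-14 OE libraries 19.0, 17.6 and 17.9 CPM. The spread within each group was narrow and the groups did not overlap. The mean went from 10.6 ± 0.425 to 18.2 ± 0.731 CPM (SD, n = 3), which is 1.71 times EV, with a log2 fold change of 0.77 (SE 0.136). This value selected SP9. In the same libraries FOXD1, FOXP2 and SIX2 had −0.33, −0.18 and −0.21, none of which passed the test. SP9 was given no test there because the comparison selected it, so these results do not set it apart.

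In the knockout series MV4-11 held 1 SP9 count over the EV libraries and 0 over the KO libraries. Molm-14 held 6.73, 6.08 and 6.33 CPM in EV and 6.14, 7.18 and 6.09 CPM in KO, which overlap, with a log2 fold change of 0.03 (95% confidence interval −0.31 to 0.38, edgeR FDR = 0.998). THP-1 held 53.3, 48.3 and 47.3 CPM in EV and 53.4, 50.8 and 51.9 CPM in KO, with a log2 fold change of 0.07 (−0.16 to 0.29, edgeR FDR = 0.897). These are the Molm-14 and THP-1 libraries in which FOXD1 had −1.90 and 0.04. The difference between the effects of THP-1 and Molm-14 was 0.03 (SE 0.199, edgeR FDR = 1.0).

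**Figure D1:**
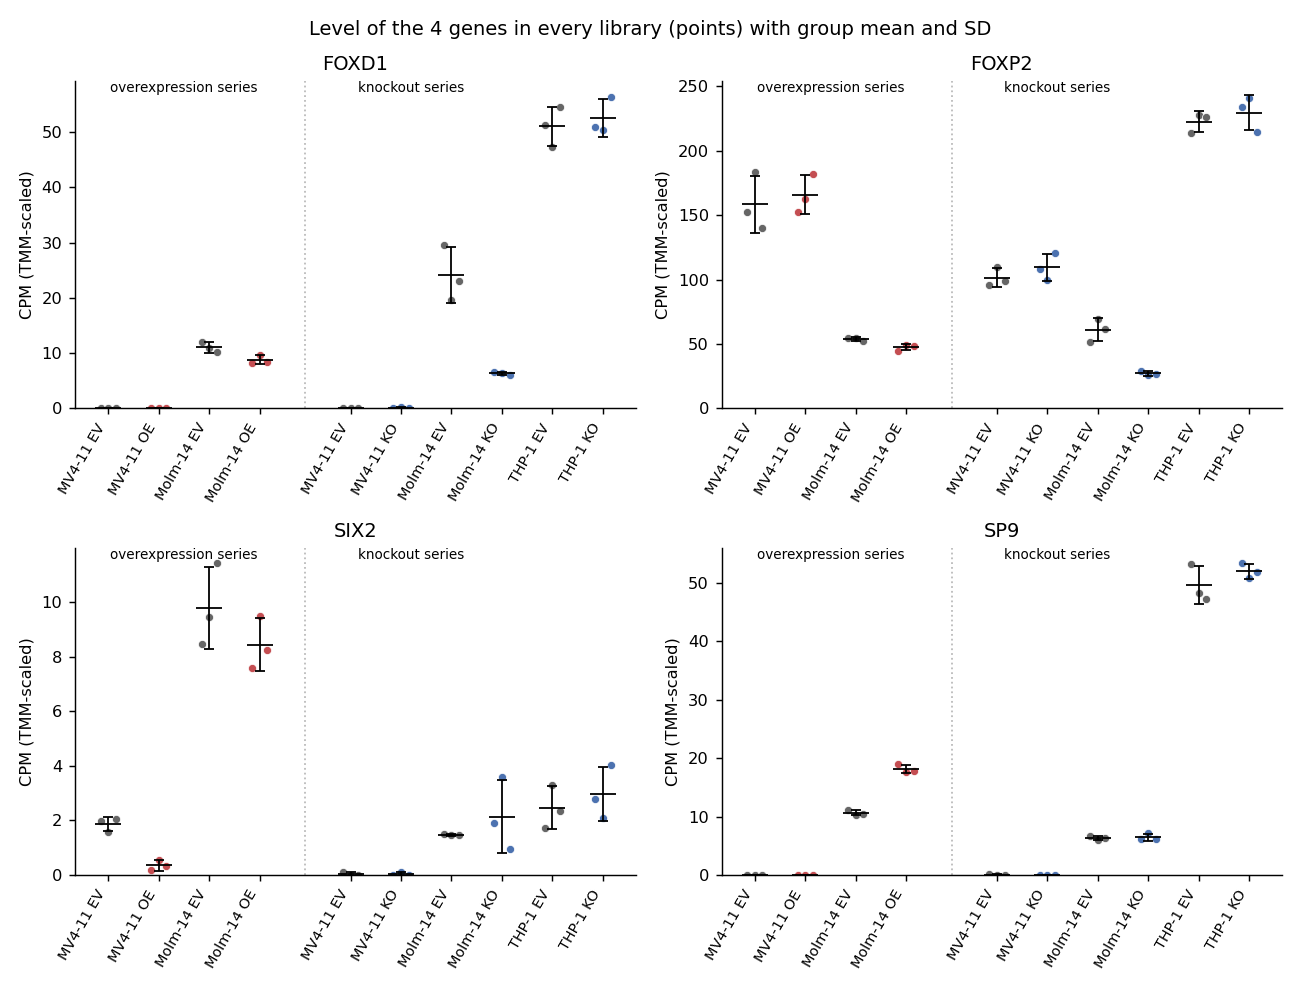
Level of FOXD1, FOXP2, SIX2 and SP9 (CPM with TMM-scaled totals, linear axes from 0) in each of the 30 libraries, with EV in grey, OE in red and KO in blue, and the mean and SD of each group in black. FOXD1 and SP9 sit at or near 0 in every MV4-11 group, FOXP2 is present in all groups, and FOXD1 and FOXP2 are lower in Molm-14 KO (6.37 and 27.2 CPM) than in Molm-14 EV (24.1 and 60.9 CPM).

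Over the 5 effects (OE or KO against EV in each line) the 4 genes gave 20 values. Of these, 4 had selected a gene and 5 had at most 3 counts in each group. The remaining 11 were tested, and 0 were called by edgeR (lowest FDR = 0.511) or by DESeq2. Of all genes, edgeR called from 0.0057% (Molm-14 OE) to 5.41% (MV4-11 KO), so 0 of 11 does not set these genes apart. At an unadjusted p under 0.05 the count of the 11 was also 0 in the edgeR fit of all libraries of a series. Under 5 other settings of edgeR or DESeq2, the lowest FDR in Molm-14 OE was 0.0928 for FOXP2 and 0.201 for FOXD1. The 4 tested differences between lines gave 0 calls by edgeR and by DESeq2, with 0 under an unadjusted p of 0.05 and the lowest edgeR FDR at 0.935. Of all genes, 0.0456% to 0.766% were called in those differences. A p that misses the threshold does not show that a gene did not change.

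**Figure D2:**
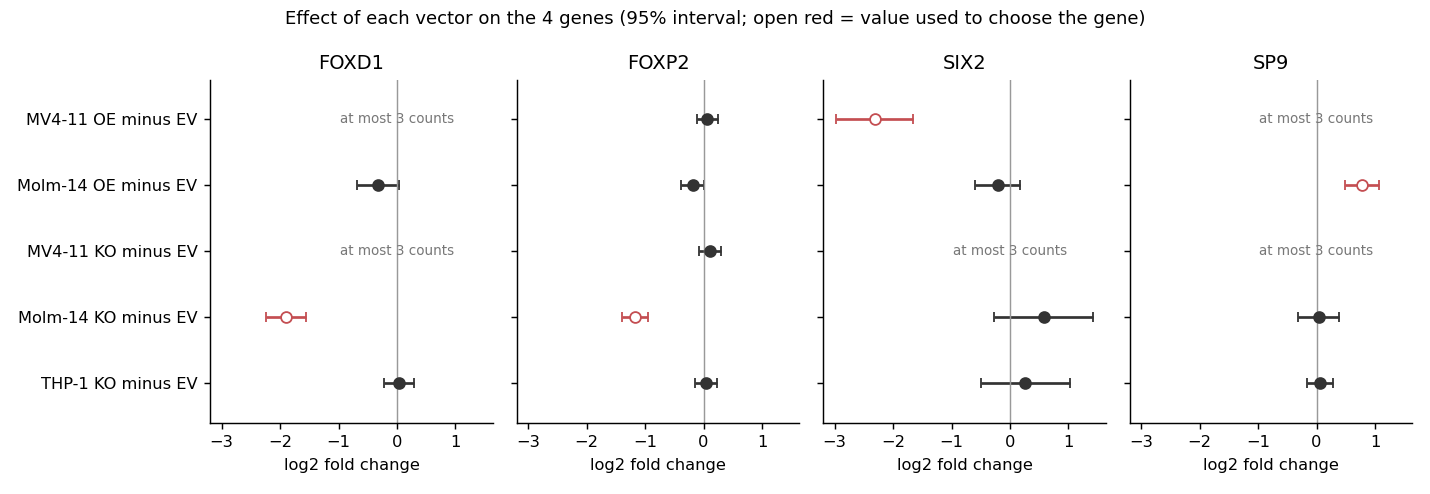
Log2 fold change of each gene in the 5 effects, with 95% confidence intervals from edgeR. Open red points are the 4 values that selected the genes (−1.90, −1.17, −2.32 and 0.77). Their intervals are not tests and cannot be set against the others, because selection favored values far from 0. Filled points are the 11 tested values, all of whose intervals cross 0, and 5 cells with at most 3 counts in each group carry no point.

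The lines themselves differed in the levels of the members. FOXD1, SP9 and, in the knockout series, SIX2 passed the filter on low counts only through lines other than MV4-11, so a difference from MV4-11 was fixed by the filter and is given for them without a test. These comparisons also share their EV libraries with the effects above. In the EV groups of the overexpression series, FOXP2 in Molm-14 was 33.9% of its level in MV4-11, with a log2 difference of −1.56 (SE 0.0892, edgeR FDR = 2.68e-10). FOXD1 was at least 196-fold higher in Molm-14 than in MV4-11, a bound set against 3 counts over the group. Of all genes, 64.8% were called in this comparison. SP9, without a test, was at least 189-fold higher in Molm-14, and SIX2, also without a test, was 5.21 times higher.

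In the EV groups of the knockout series the same direction held for FOXD1, SIX2 and SP9. SIX2 held 33 counts in Molm-14 against 1 in MV4-11, a ratio of 31.1, and SP9 held 142 against 1, a ratio of 134. Each ratio rests on 1 count in MV4-11, so its size is poorly known, and its direction was fixed by the filter. Of all genes, 61.7% were called. Without a test, FOXD1 was at least 165-fold higher in Molm-14 and FOXP2 was 1.67 times higher in MV4-11.

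THP-1 had the most of FOXD1, FOXP2 and SP9 among the EV groups of the knockout series. Against MV4-11 it had at least 374-fold more FOXD1 and 2.19 times the FOXP2 (log2 difference 1.13, SE 0.0931, edgeR FDR = 2.72e-11). SP9 stood at 985 against 1 count, a ratio of 1100, and SIX2 at 48 against 1, a ratio of 53.7, both with the same limits. Of all genes, 67.5% were called. Against Molm-14, SP9 in THP-1 was 7.78 times higher (log2 difference 2.97, SE 0.133, edgeR FDR = 3.84e-16), while SIX2, at 1.67 times, did not pass (log2 difference 0.72, SE 0.407, edgeR FDR = 0.117), and 69.6% of genes were called. FOXD1 and FOXP2 were 2.12 and 3.66 times higher in THP-1 than in Molm-14, without a test. Most genes differed between lines, so a call here is not particular to these genes.

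By group means, the order of levels in the EV groups was MV4-11, Molm-14, THP-1 for FOXD1 and SP9, and Molm-14, MV4-11, THP-1 for FOXP2. For SIX2 it was MV4-11 below Molm-14 and THP-1, whose difference did not pass the test. Per kilobase of exon, THP-1 EV held 19.4 CPM of SP9, 17.8 of FOXD1, 13.5 of FOXP2 and 1.11 of SIX2, and Molm-14 EV of the knockout series held 8.43 of FOXD1, 3.68 of FOXP2, 2.50 of SP9 and 0.669 of SIX2. The length is that of all annotated exons, 16537 bases for FOXP2 and 2206 to 2863 bases for the other genes, so the level of FOXP2 per kilobase is lower than it would be for a single transcript.

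The paralogs FOXP1 and FOXP4, which form dimers with FOXP2, were measured beside it. FOXP1 was at 155.5 CPM in MV4-11 EV and 134.9 CPM in Molm-14 EV of the overexpression series (log2 difference −0.20, SE 0.0631, edgeR FDR = 0.00774), and FOXP4 at 54.4 and 80.1 CPM (0.56, SE 0.083, edgeR FDR = 8.52e-06). FOXP1 in Molm-14 of the knockout series was 83.8 ± 4.64 CPM in EV and 75.9 ± 6.73 CPM in KO (SD, n = 3), with a highest KO library of 80.0 and a lowest EV library of 80.6 CPM (log2 fold change −0.15, edgeR FDR = 0.702). FOXP4 went from 5.89 ± 2.16 to 3.77 ± 1.45 CPM there (−0.69, SE 0.335, edgeR FDR = 0.477). Neither FOXP1 nor FOXP4 was called in any of the 5 effects.

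Genes of the same families and tissues were then counted, from lists written by hand with earlier results of these data known. The list of other developmental factors was chosen by hand and is not a family. Some of the other lists hold whole families, so the counts are not limited to factors that are usually off in blood cells. For example, SP3 was at 243.6 CPM and FOXP1 at 97.2 CPM in MV4-11 EV of the knockout series. In Molm-14 KO, 0 of 98 tested developmental factors other than the members were called higher and 5 lower (5.1%, beside 1.06% of all genes lower), with a median log2 fold change of −0.07 beside 0.0 over all genes. The 5 were FOXA1 of the forkhead family and OSR2, NR2F1, IRX3 and IRX5 of the list of other developmental factors. Those lists held 18 and 55 tested genes other than the members. The SP and KLF family gave 0 calls of 19, and the EYA and DACH genes with the paralogs of SIX2 gave 0 of 6. Most of the 5 thus came from the list chosen by hand with earlier results known. The share of 5.1% is therefore a description and not a test against all genes. FOXA1, a pioneer factor of endoderm, went from 41.4 ± 2.53 to 25.7 ± 2.9 CPM (log2 fold change −0.69, SE 0.157, FDR = 0.0113). OSR2, a zinc-finger factor of palate and kidney mesenchyme, went from 18.9 ± 1.01 to 9.87 ± 1.87 CPM (−0.92, SE 0.151, FDR = 0.000315). NR2F1, a nuclear receptor that patterns the cortex, had −0.69 (SE 0.142, FDR = 0.00511), and the Iroquois factors IRX3 and IRX5 had −0.54 (SE 0.0979, FDR = 0.00113) and −0.53 (SE 0.144, FDR = 0.0431).

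OSR2 and IRX3 were called in all 6 fits that left out 1 library of this comparison. NR2F1 was lost without Molm-14 KO replicate 2 (FDR = 0.0503), FOXA1 without that library or without EV replicate 3 (FDR up to 0.123), and IRX5 was called in 1 of the 6 fits and in 1 of 5 other settings. DESeq2 called 4 of these 98 factors. MEIS2, a homeodomain factor on both the kidney list and the forebrain and limb list, was called in Molm-14 KO (−0.30, SE 0.0809, FDR = 0.0444), but in 0 of 6 fits with 1 library left out and not by DESeq2. It was the 1 call among the 8 and 12 tested genes of those lists other than the members. In MV4-11 KO it had −0.41 (SE 0.119, FDR = 0.0431), again lost in all 6 such fits.

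The other effects gave few calls in these lists. In MV4-11 KO, 1 of 98 factors was called higher (SP3, 0.29, SE 0.0727, FDR = 0.021) and 4 lower (OLIG1 at −1.59, KLF6 at −0.60, KLF10 at −0.52 and WT1 at −0.50), which is 5.1% beside 5.41% of all genes. Each of the 5 lost its call in 2 to 4 of 6 fits with 1 library left out, EV replicate 3 being in common. SP3 and KLF6 were also lost with only the groups compared, and OLIG1 with DESeq2. In MV4-11 OE 1 of 91 was called (1.1%, beside 0.177% of all genes), RUNX2 (−0.27, SE 0.0489, FDR = 0.0226). RUNX2 was called in 2 of 6 fits with 1 library left out and in 3 of 5 other settings (FDR up to 0.366). In Molm-14 OE edgeR and DESeq2 called 0 of 91, with 6 under an unadjusted p of 0.05, beside 0.0057% of all genes called by edgeR. In THP-1 KO both called 0 of 98, with 7 under an unadjusted p of 0.05, beside 0.0897% of all genes called by edgeR. The forkhead family without the members gave 0 calls in the other 4 effects by edgeR, and 1 by DESeq2 in MV4-11 KO, with 0 to 4 under an unadjusted p of 0.05. The EYA and DACH genes and the paralogs of SIX2 gave 0 calls by edgeR and by DESeq2 in all 5 effects, with 0 to 2 of 6 under an unadjusted p of 0.05.

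**Figure D3:**
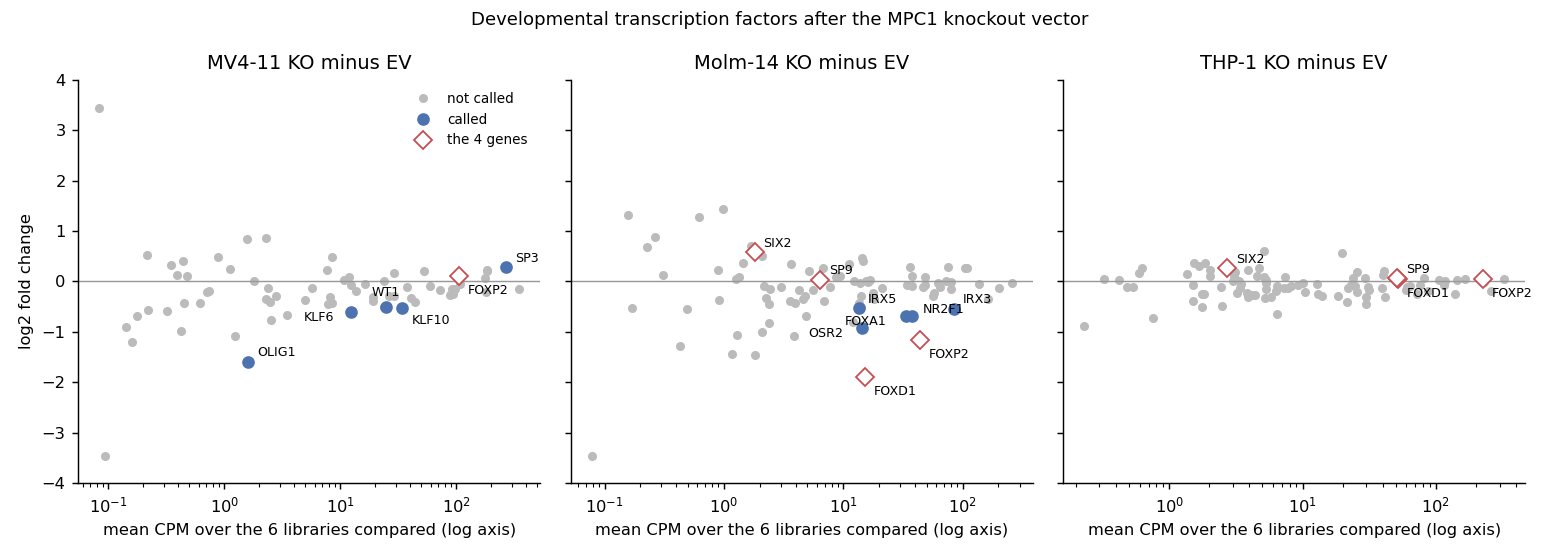
Log2 fold change (vertical axis) of tested developmental factors against their mean CPM over the 6 libraries compared (log axis), for KO minus EV in each of the 3 lines. Blue points are called factors, open red diamonds are FOXD1, FOXP2, SIX2 and SP9, and genes with at most 3 counts in each group are not drawn. In Molm-14 the 5 called factors all lie below 0, and in THP-1 no factor is called.

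Some blood lineage factors and myeloid markers were called in the same Molm-14 KO libraries. Of 33 tested haematopoietic factors, 2 were called higher and 2 lower. The higher were IRF8, a factor of monocyte and dendritic cell development (0.84, SE 0.0826, FDR = 1.4e-07), and LMO2 (0.36, SE 0.0809, FDR = 0.0108). The lower were GATA2, a stem and progenitor cell factor (−1.10, SE 0.167, FDR = 0.000135), and IKZF2 (−0.63, SE 0.146, FDR = 0.0146). These 4 are 12.1% of the list, beside 2.4% of all genes, and the median log2 fold change was −0.01. Of the 12 myeloid markers 1 was called higher and 1 lower, with a median of 0.01. LYZ, the lysozyme gene of maturing monocytes, rose from 321.5 ± 32.1 to 625.8 ± 1.62 CPM (0.96, SE 0.104, FDR = 8.32e-07), and MPO, a granule enzyme of early myeloid cells, fell from 85.9 ± 6.35 to 39.7 ± 3.28 CPM (−1.11, SE 0.1, FDR = 3.41e-08). The summed level of the 12 myeloid markers ran from 2300 to 2540 CPM in Molm-14 EV and from 2590 to 2760 CPM in Molm-14 KO. This sum includes the rise of LYZ, so it does not show a rise of the markers in general. The part of these shifts in the lower FOXD1 and FOXP2 levels was not tested.

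In MV4-11 OE, in which SIX2 was selected, 1 of 32 tested haematopoietic factors was called (3.12%, beside 0.177% of all genes). This was TCF4 (−1.51, SE 0.225, FDR = 0.0465). TCF4 was called in 3 of 6 fits with 1 library left out and in 2 of 5 other settings (FDR up to 0.709). In MV4-11 KO, 4 of 33 haematopoietic factors were called higher, IRF4 most (1.27, SE 0.107, FDR = 1.47e-08), and 2 lower, which is 18.2% beside 5.41% of all genes. KRT18 was called higher in MV4-11 KO, from 2.06 ± 0.348 to 4.14 ± 0.496 CPM (0.98, SE 0.258, FDR = 0.0278), but was lost in 4 of 6 fits with 1 library left out and with only the groups compared. Of 6 genes reported as FOXP2 targets, 3 or 4 were tested in each effect, and edgeR and DESeq2 called 0 in all 5 effects, with 2 under an unadjusted p of 0.05 in MV4-11 KO, 1 in THP-1 KO and 0 in the other effects.

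Other developmental factors were also at or near 0 in MV4-11. Genes were counted that had at most 3 counts over the 3 MV4-11 EV libraries and a mean of at least 1 CPM in the EV group of Molm-14. In the overexpression series these were 260 of 60675 genes (0.429%), and 13 of 229 developmental factors other than the members (5.68%), including the distal-less factors DLX5 and DLX6, the neural factors PAX6, POU3F2, ZIC1, ZIC4 and ZIC5, and NR2F1. In the knockout series, where THP-1 EV also had to reach 1 CPM, they were 179 of 58051 genes (0.308%) and 6 of 229 factors (2.62%), namely DACH1, NR2F1, OTX1, SIX4, TBX18 and TWIST1. Of 40 haematopoietic factors, 0 met the rule in the overexpression series and 1, IKZF3, in the knockout series. These shares are descriptions, since the list was written with the members in view. Their bases also differ, because many listed genes had too few counts to be tested. Of all genes 17542 and 14490 were tested in the 2 series, and of the 229 factors 91 and 98.

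**Figure D4:**
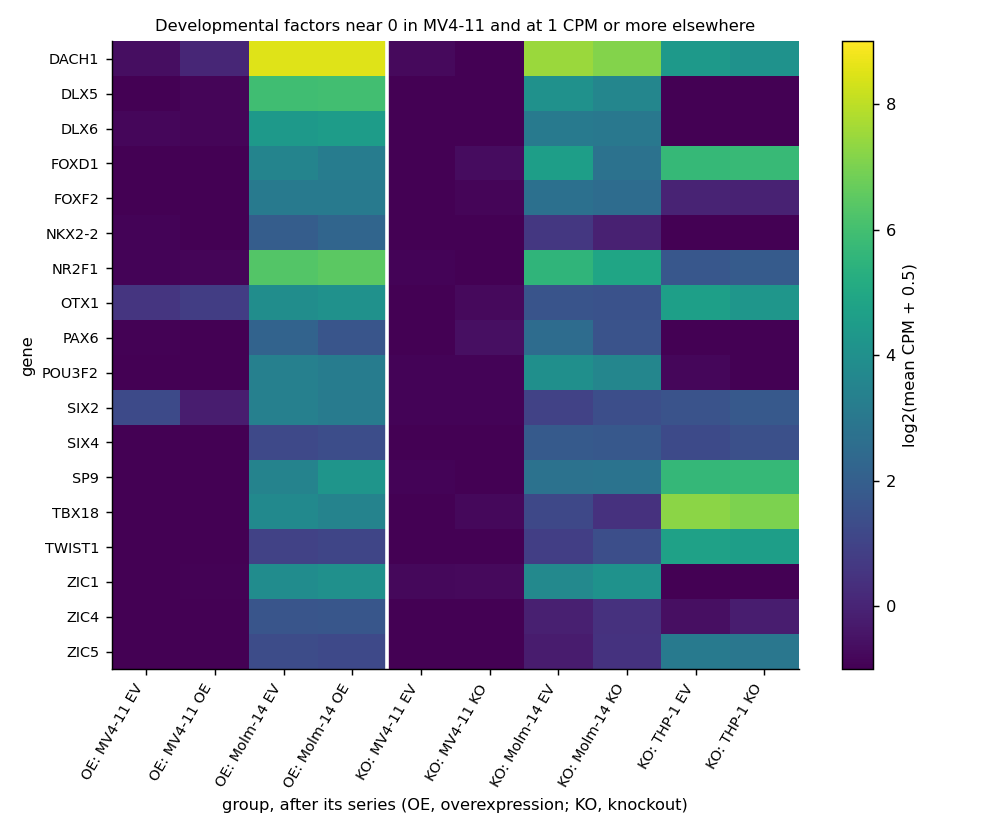
Mean level of 18 developmental factors in each group, as log2(mean CPM + 0.5), for FOXD1, SIX2, SP9 and the 15 other factors that had at most 3 counts over MV4-11 EV and at least 1 CPM in the EV groups of the other lines in either series. Purple marks low and yellow high levels. The MV4-11 columns are dark except for SIX2 and OTX1 in the overexpression series, and DLX5, DLX6, PAX6 and ZIC1 are lighter in Molm-14 than in THP-1.

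The chromosomal neighbours of the members were examined for the comparison that selected each of them. Around FOXD1 in Molm-14 KO, 5 genes within 500 kb were tested, with log2 fold changes from −0.50 to 0.13. The lowest was FCHO2 (SE 0.141, FDR = 0.0546), whose start is 492.7 kb away, and the nearest was BTF3 (−0.01, SE 0.0753). Around FOXP2 the 2 tested genes had 1.68 (PPP1R3A, at 7 against 21 counts) and −0.13 (MDFIC). Around SIX2 in MV4-11 OE, 5 genes were tested, and SIX3, the paralog 67.8 kb away by start sites, had −0.98 (SE 0.52, FDR = 0.904) and the non-coding LINC01833 −1.20 (SE 0.423, FDR = 0.571). Around SP9 in Molm-14 OE, 8 genes were tested from −0.26 to 1.07, and the highest was LINC01305, which starts at −8.93 kb along the strand of SP9 and went from 0.969 to 2.07 CPM (SE 0.337, FDR = 1.0). In the knockout series LINC01305 was at 37.0 CPM in THP-1 EV, 2.60 CPM in Molm-14 EV and 0.777 CPM in MV4-11 EV. Neither edgeR nor DESeq2 called any of these 20 neighbours, and 1 beside each member had an unadjusted p under 0.05.

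In effects that had not selected the member beside them, 3 neighbours were called. PPP1R3A, a glycogen-targeting subunit of a protein phosphatase, starts at −10.4 kb along the strand of FOXP2, on the opposite strand. It held 6.02, 6.75 and 6.30 CPM in MV4-11 EV and 1.14, 1.24 and 0.611 CPM in MV4-11 OE, with no overlap and a log2 fold change of −2.67 (SE 0.341, FDR = 0.000524). FOXP2 beside it had 0.06 in the same libraries. PPP1R3A remained called in all 6 fits that left out 1 library and in all 5 other settings (FDR up to 0.00567). In MV4-11 KO it went from 3.41 to 5.86 CPM (0.78, SE 0.272) and was not called (FDR = 0.0876). MDFIC, on the other side of FOXP2, was called higher in MV4-11 KO (0.38, SE 0.0928, FDR = 0.0171), and was lost in 2 of 6 fits with 1 library left out and with only the groups compared. SP3, which starts at −369.6 kb along the strand of SP9, is the SP family gene called in the same comparison above.

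**Figure D5:**
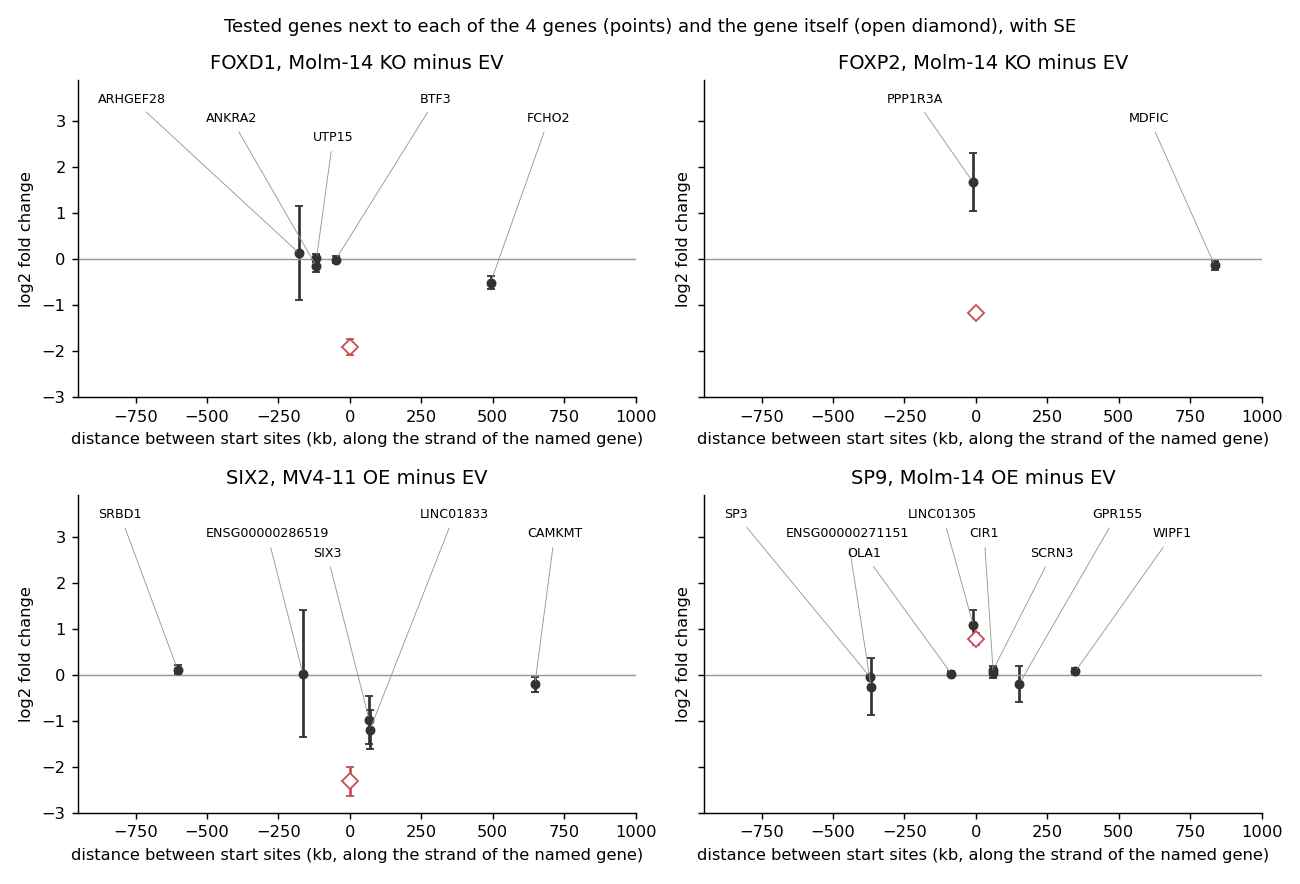
Log2 fold change with SE of the tested genes near each member, in the comparison that selected the member, against the distance between start sites in kb along the strand of the member. The member is an open red diamond at 0 and its neighbours are black points, none of which was called. SIX3 (−0.98) and LINC01833 (−1.20) lie below 0 beside SIX2, and LINC01305 (1.07) lies above 0 beside SP9.

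Genes whose log2 CPM followed each member most closely over all libraries of a series were listed by Pearson's r, as a description without a test. In the overexpression series the closest were TSPAN12, MIR99AHG and MAP1B for FOXD1 (r = 0.9995 for each), RPS6KL1, YLPM1 and IREB2 for FOXP2 (0.996), and HDHD3, DNM3 and CTSC for SIX2 (0.978 to 0.988), over 12 libraries. ZNF391 (0.9976) and FOXO3 (0.9972) were among the closest for SP9. These 12 libraries fall into 2 lines, and the line sets most of each value. Over the 18 libraries of the knockout series they were OAS3, ATP8B1 and MOXD1 for FOXD1 (0.991 to 0.993), PTPRG, ZNF75A and SESN3 for FOXP2 (0.968 to 0.988), and CLUHP3, HOTTIP and SLC29A4 for SIX2 (0.959 to 0.968), with TRHDE (0.997) and SLC17A5 (0.9955) among the closest for SP9. Among the members, FOXD1 and SP9 had r = 0.969 in the knockout series and 0.987 in the overexpression series. FOXD1 and FOXP2 had 0.279 and −0.983.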

How the data were processed

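RNA from 30 libraries in 10 groups of 3 was sequenced after ribosomal depletion with a stranded total RNA kit. The authors trimmed reads with cutadapt 1.16, removed optical duplicates, aligned to GRCh38 with STAR 2.7.6a and counted with featureCounts 1.6.3, and they deposited raw counts per Ensembl gene in 1 table per series. Whether the counting used strand was not stated. Gene positions came from GENCODE on GRCh38, and sequences from RefSeq.

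Counts were filtered with filterByExpr, scaled with TMM and fitted by the robust quasi-likelihood test of edgeR 4.0.16 in R 4.3.3, with 1 mean for each group and 1 fit for each series, at a Benjamini-Hochberg FDR under 5%. DESeq2 1.42.0 was an alternative. The fits were tested on simulated data. Replicate libraries differed beyond counting noise (chi-square per degree of freedom 1.55 to 17.8), and none was dropped.

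The members and lists were chosen with earlier results of these data known. Named genes were the members, MPC1, up to 3 called genes per list, direction and effect, genes overlapping a member or within 500 kb of it, and the 3 genes with the highest r per member and series, some of which are not reported here. Values against a group at 0 counts use a floor of 3 counts over the group.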

Additional observations from a re-analysis of the deposited data

How the results depend on the processing

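Of the 11 tested effects on the members, 0 were called under any of the alternatives (DESeq2 size factors, DESeq2, no filter, only the groups compared, the replicate block, or 1 library left out). Signs near 0 turned when 1 library was left out. The lowest and highest log2 fold changes were −0.0147 and 0.18 for FOXP2 in MV4-11 OE, −0.0598 and 0.92 for SIX2 and −0.0532 and 0.0769 for SP9 in Molm-14 KO, and −0.00773 and 0.54 for SIX2 and −0.00926 and 0.0896 for FOXD1 in THP-1 KO. Of the differences between lines, THP-1 minus MV4-11 for FOXP2 ran from −0.13 to 0.0112, and THP-1 minus Molm-14 from −0.65 to 0.32 for SIX2 and from −0.00893 to 0.12 for SP9, which was also −0.0037 with no filter.

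The number of genes called over all genes moved by over 1.5 times in these settings. In MV4-11 OE it was 31, against 123 with no filter, 15 with the replicate block, 9 with only the groups compared and 65 by DESeq2. In Molm-14 OE it was 1, against 7, 2, 195 and 5 in that order. In MV4-11 KO it was 784, against 1474 with the replicate block and 356 with only the groups compared. In THP-1 KO it was 13, against 30 with no filter, 4 with only the groups compared and 26 by DESeq2. With 1 library left out the counts ran from 12 to 47 in MV4-11 OE, 133 to 1400 in MV4-11 KO, 183 to 293 in Molm-14 KO and 3 to 10 in THP-1 KO. The cause was not tested.

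Replicate numbers did not pair the libraries in every line, as the correlation of same-numbered deviations ran from −0.377 to 0.330. THP-1 was the only line with all 3 above 0, at 0.179, 0.0987 and 0.330. Its pairs with unlike numbers ran from −0.262 to 0.145, and whether its libraries were paired was not tested. The replicate block changed no call of a member. Unscaled totals moved the level of SIX2 in Molm-14 EV of the knockout series from 1.48 to 1.42 CPM. At 5339360 to 9106478 counts per library, SIX2 in the knockout series rested on 33 to 56 counts per group in Molm-14 and THP-1.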
